A study of Mus musculus with 2 samples.

Results

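From the 23889 gene symbols measured by RNA sequencing in mouse embryonic stem cells, 10 genes that encode parts of the sarcomere or proteins of striated muscle were chosen. They are the sarcomeric actins Actc1 and Acta1, the troponins Tnnt1, Tnnt2, Tnnc1 and Tnni1, the myosin light chains Myl4 and Myl7, the intermediate filament gene Des, and Smyd1, a methyltransferase of muscle. The genes were chosen by symbol with earlier results of these same data known, and the difference between the libraries for some of them, such as Smyd1, Tnnt1 and Myl7, was in view. The differences between libraries are therefore a description, and none was tested.

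The libraries were made from E14, a mouse embryonic stem cell (mESC) line that the labels derive from a 19/Ola mouse, and the study asked what loss of USP21, a deubiquitinase, does to mESCs. Cells transfected with a control shRNA (genotype Normal) gave 1 library and cells transfected with USP21 shRNA (genotype USP21 knockdown) gave the other. Both cultures grew without feeder cells on gelatin, in serum medium with LIF, and total RNA was taken at 3 days of knockdown. Which USP21 shRNA was used, and whether cells were selected for its uptake, is not given in the labels, and each group is 1 library without replicates.

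The sarcomere is the contractile unit of heart and skeletal muscle. Thin filaments of alpha actin carry tropomyosin and the troponin complex, in which troponin C binds calcium, troponin I inhibits contraction and troponin T ties the complex to tropomyosin. Thick filaments are built of myosin heavy chains, each with an essential and a regulatory light chain. Desmin links neighbouring myofibrils, and Smyd1 is needed for myofibril assembly and heart development. These genes belong to differentiated muscle and are not part of the known programme of pluripotent cells.

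The knockdown was visible in the targeted gene. Usp21 had an FPKM (fragments scaled to transcript length and to the mapped fragments of the library) of 26.2 in the control library and of 3.49 in the USP21 shRNA library, so 13.3% of the control level was left. Differences are given as log2((FPKM USP21 shRNA + 0.1)/(FPKM control shRNA + 0.1)), in which the added 0.1 pulls low genes toward 0, and a gene was counted as past 2-fold when this log2 ratio was at least 1 or at most -1 and its FPKM was at least 1 in one of the libraries. By this count 4.33% of 11927 genes lay past 2-fold, 2.3% higher and 2.03% lower with USP21 shRNA. When the FPKM values were rescaled to equal sums, the median log2 ratio over genes with an FPKM of at least 0.1 went from 0.0 to 0.18. Genes of low FPKM moved less, because of the added 0.1. The share of genes past 2-fold that were higher went from 53.1% to 75.1%. The files hold no counts. From the steps between the lowest values, the ratio of sequencing depth, control over USP21 shRNA, was estimated as 1.24.

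The promoters of the members differ in motifs known from muscle genes. RefSeq windows of 300 bases, from 250 bases before the transcript start to 50 after it (GRCm38.p6), were found for all 10 members, 12 windows in all, and searched on both strands, each motif by itself. The CArG box, the site bound by serum response factor, was present in the windows of Acta1, Actc1 and Myl7 and in 1.63% of all 32851 windows. The letters TATAAA stood in the windows of Acta1, Actc1, Tnnt1 and Smyd1 and in 13.6% of all windows. The E-box CANNTG was present in 10 of the 12 windows of the members (Tnni1 and Tnnt2 have 2 each), against 72.3% of all windows. GATA sites, spelled AGATAA with T also allowed as the first letter and G as the last, were found for Myl7 and Tnnt2, against 29.8% of all windows, and the MEF2 box was found for no member, against 3.19%. A match describes letters in these windows and is not evidence of binding. The sequences below are those of Smyd1, Acta1 and Myl7 over the 150 bases before the RefSeq start, and the motif with 10 bases on each side for Actc1 and Tnnt1. Capitals mark the CArG box (Acta1, Myl7, Actc1) and the TATA letters (Acta1, Tnnt1, and Smyd1 on the opposite strand). All are on the minus strand and read 5′ to 3′. RefSeq starts can differ from those of the GENCODE annotation used for gene positions. The RefSeq start of Smyd1 lies inside its GENCODE gene body, and the 150 bases before the starts of Actc1 and Tnnt1 overlap GENCODE exons of the same genes.
Smyd1, chr6:71262282-71262431: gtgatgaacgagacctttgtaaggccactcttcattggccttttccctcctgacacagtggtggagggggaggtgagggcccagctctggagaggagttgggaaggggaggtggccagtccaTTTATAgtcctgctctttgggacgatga
Acta1, chr8:123894776-123894925: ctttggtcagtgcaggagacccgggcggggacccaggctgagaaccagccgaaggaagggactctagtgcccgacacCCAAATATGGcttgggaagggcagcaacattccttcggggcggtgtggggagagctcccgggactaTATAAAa
Myl7, chr11:5898783-5898932: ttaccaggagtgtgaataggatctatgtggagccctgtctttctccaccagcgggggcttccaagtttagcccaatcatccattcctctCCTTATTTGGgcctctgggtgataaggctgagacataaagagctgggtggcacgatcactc
Actc1, chr2:114052903-114052932: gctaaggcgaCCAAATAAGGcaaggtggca
Tnnt1, chr7:4515990-4516015: agcacctagcTATAAAtccagggggt
The CArG boxes began 73 bases before the start for Acta1, 47 for Actc1 and 61 for Myl7. For the carriers of a CArG box the log2 ratio was 1.78 for Acta1, 0.06 for Actc1 and -2.01 for Myl7. Acta1 stayed under an FPKM of 1 and Actc1 under 0.1 in both libraries, so a shared direction cannot be judged. Srf, which encodes serum response factor, had an FPKM of 18.2 in the control library and 18.8 with USP21 shRNA. Whether serum response factor had a part in these values was not tested.

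The 10 genes did not differ in one direction. Of the 6 members with an FPKM of at least 1 in one library, Smyd1 and Tnnt1 were more than 2-fold higher with USP21 shRNA, Myl4 and Myl7 were more than 2-fold lower, and Des and Tnnc1 stayed within 2-fold. This count of 4 stands beside the 4.33% of all genes past 2-fold and says nothing on its own, because the genes were chosen with these values known. The filter of an FPKM of 0.1 in one library was passed by 9 members, 5 with a log2 ratio above 0 and 4 below it, with a median of 0.38 and a range of -2.01 to 2.72. Over all 15316 genes that passed it the median was 0.0, the middle 50% lay between -0.25 and 0.27, and 50.5% were above 0. Actc1 was the member that did not pass.

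**Figure D1:**
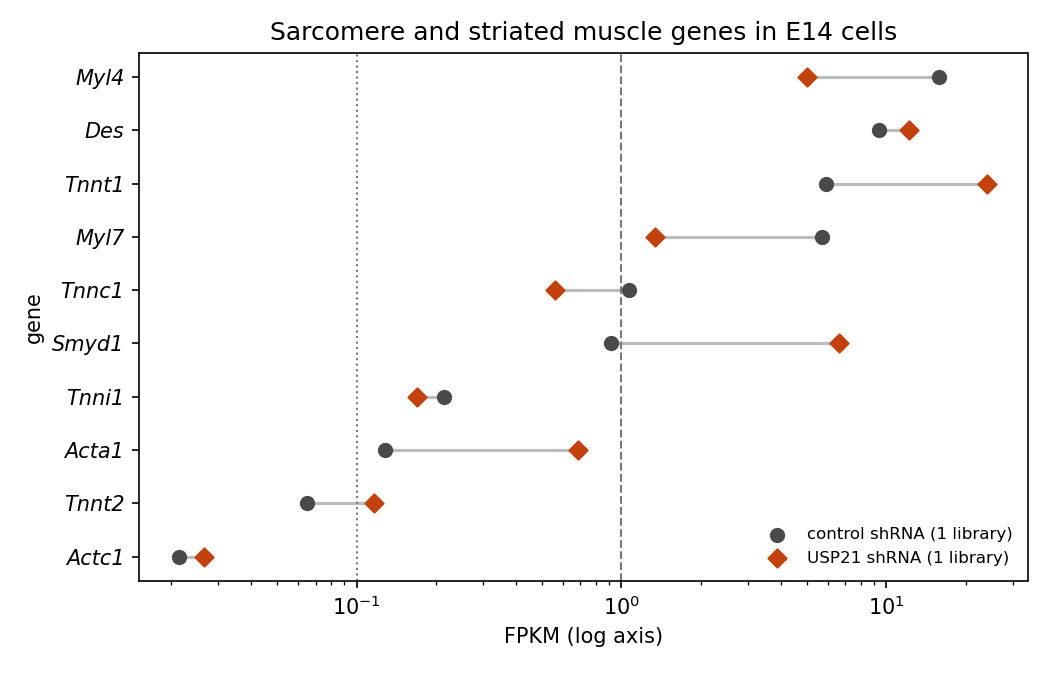
FPKM (log axis) of each member in the control shRNA library (grey circles) and the USP21 shRNA library (orange diamonds), 1 library each, in order of the control level. The dotted line is an FPKM of 0.1 and the dashed line an FPKM of 1, and the longest connecting lines are those of Smyd1, Acta1, Myl7 and Tnnt1.

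In the control library the order of FPKM, which is per length and so can be compared between genes, was Myl4, Des, Tnnt1, Myl7, Tnnc1, Smyd1, Tnni1, Acta1, Tnnt2 and Actc1. With USP21 shRNA it was Tnnt1, Des, Smyd1, Myl4, Myl7, Acta1, Tnnc1, Tnni1, Tnnt2 and Actc1. With 1 library per group, neighbours in either order cannot be told from each other by their spread. Summed over the 10 members, FPKM was 39.2 in the control library and 50.7 with USP21 shRNA. The make-up of this sum was different in each library. Myl4 made up 40.4% of it in the control library and 9.92% with USP21 shRNA, while Tnnt1 made up 15.1% and 47.3%, and Des held 23.8% and 24.0%. Without Tnnt1 the sum was 33.3 in the control library and 26.7 with USP21 shRNA.

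Smyd1 showed the highest log2 ratio of the members. The gene encodes a SET and MYND domain protein that methylates histones and assists myosin assembly in heart and skeletal muscle. Its FPKM was 0.916 in the control library and 6.61 with USP21 shRNA, a ratio of 7.22 (log2 ratio 2.72), and 21 of the 15316 genes that passed the filter lay as far from 0 or farther, Smyd1 included. Among genes whose higher FPKM was between 5 and 20, 3.14% were past 2-fold in either direction. In rank from the highest FPKM, Smyd1 went from 11730 to 7851 of 23889 symbols. The other Smyd genes stayed within 2-fold, with log2 ratios from -0.01 for Smyd5 to 0.33 for Smyd4, so the difference of Smyd1 was not seen in its family. Smyd1 spans chr6:71213940-71322233 on the minus strand of GRCm38, a stretch that also holds Krcc1 on the opposite strand without shared exons. Krcc1 had an FPKM of 16.1 in the control library and 25.2 with USP21 shRNA (log2 ratio 0.65), and the source notes do not say whether fragments were counted by strand. Cd8b1, next to Smyd1 on the other side, had FPKM values of 0.0227 and 0.0278, and Fabp1 was listed at 0 in both libraries. No 31-base word of the Smyd1 transcript occurred in another gene's transcript.

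Tnnt1, slow skeletal troponin T, was the member with the highest FPKM after knockdown. Its FPKM was 5.91 in the control library and 24.0 with USP21 shRNA, a ratio of 4.06 (log2 ratio 2.0), and 78 genes lay as far from 0 or farther. In the band of higher FPKM between 20 and 100 the share past 2-fold was 1.9%. Tnnt1 went from rank 8009 to rank 3655. It accounted for 98.6% of the summed FPKM of the troponin T genes in the control library and 99.3% with USP21 shRNA. The cardiac form Tnnt2 had FPKM values of 0.0651 and 0.117 (log2 ratio 0.39) and the fast skeletal form Tnnt3 of 0.0209 and 0.0513.

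The partners of troponin T in the complex did not follow Tnnt1. Tnnc1, troponin C of heart and slow muscle, had an FPKM of 1.06 in the control library and 0.559 with USP21 shRNA (log2 ratio -0.82), in a band of higher FPKM from 1 to 5 where 9.67% of genes were past 2-fold. Tnni1, slow skeletal troponin I, was low in both, at 0.213 and 0.17. The troponin I present was mostly Tnni3, the cardiac form, at 3.5 and 3.57, which made up 92.7% of the troponin I sum in the control library and 95.5% with USP21 shRNA. The ratio of Tnnt1 to Tnnc1 FPKM was 5.55 in the control library and 42.9 with USP21 shRNA, and that of Tnnt1 to Tnni3 was 1.69 and 6.73. Tnnt1 (chr7:4504570-4516382) and Tnni3 lie 1923 bases apart on the minus strand. The log2 ratio of Tnni3 was 0.03 and that of Ppp1r12c, on the other side of Tnnt1, was -0.02, so the gene neighbours on both sides stood near 0. Tnnc1 lies within the body of Nisch, on the opposite strand and without shared exons, and Nisch had a log2 ratio of 0.25. Tnni1 and Tnnt2 lie on chromosome 1 with Lad1 between them, and Lad1 had FPKM values of 1.09 and 0.664.

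Both atrial myosin light chains were lower with USP21 shRNA. Myl4, the essential light chain of embryonic muscle and atria, was the member with the highest control level, with an FPKM of 15.9 against 5.03 with USP21 shRNA (log2 ratio -1.64, 3.15-fold lower). Myl7, the atrial regulatory light chain, had 5.72 and 1.34 (log2 ratio -2.01, 4.26-fold lower). For Myl4 200 genes and for Myl7 74 genes lay as far from 0 or farther. Myl4 went from rank 4962 to 8570 and Myl7 from 8088 to 11144. The light chain with the highest level was not a member of the list. Mylpf, the regulatory chain of fast skeletal muscle, had 100.1 and 87.4, which was 81.8% and 92.6% of the summed light chains. The ventricular chains Myl2, at 0.728 and 0.556, and Myl3, at 0 and 0.0329, were low, and Myl1 was listed at 0 in both libraries.

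Pold2, Cdc27 and Itgb3, which flank the light chains, stayed within 2-fold. Myl7 (chr11:5896637-5898782, minus strand) lies next to Pold2, which had FPKM values of 153 and 111. Myl4 (chr11:104550663-104595753, plus strand) starts 43 bases from the divergent gene Cdc27, which was higher with USP21 shRNA, at 31.1 and 37.9 (log2 ratio 0.28). Itgb3, on its other side, had 3.73 and 2.46. Myl4 and Myl7 are short transcripts, of 943 and 590 bases, and short transcripts leaned lower with USP21 shRNA over all genes. Spearman's rho of the log2 ratio with transcript length was 0.32 across 11378 genes, which are not independent replicates. With this trend removed the log2 ratio was -1.45 for Myl4 and -1.73 for Myl7, both still more than 2-fold lower.

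**Figure D2:**
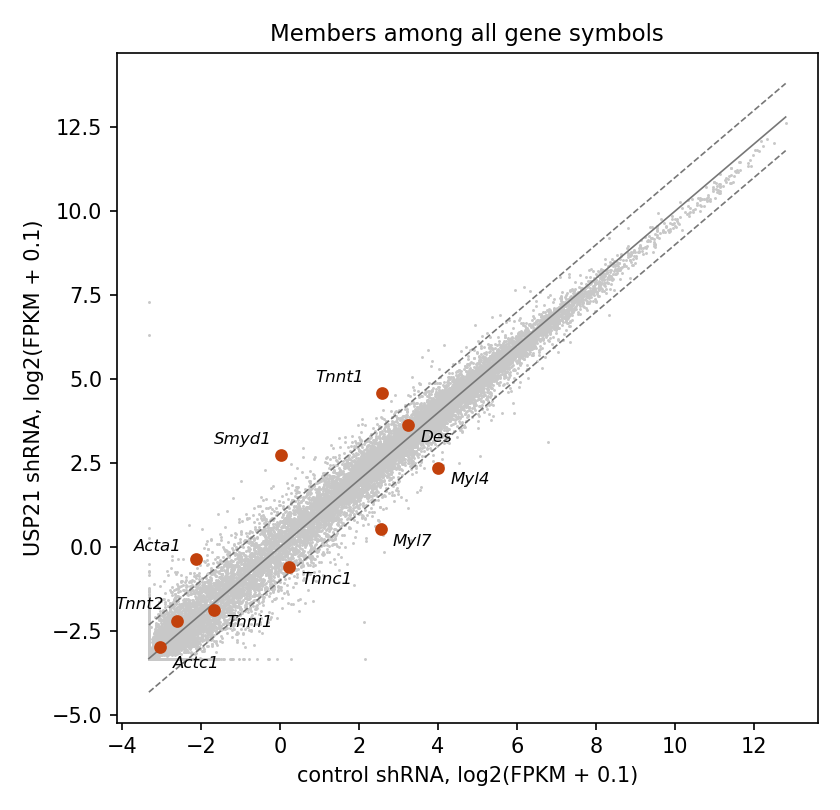
Log2(FPKM + 0.1) of every gene symbol in the control shRNA library (x axis) and the USP21 shRNA library (y axis), with the 10 members in orange. The solid line is equality and the dashed lines mark 2-fold, and Smyd1, Tnnt1 and Acta1 lie above the upper line while Myl4 and Myl7 lie below the lower one.

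The sarcomeric actins were barely detected. Acta1, skeletal alpha actin, had an FPKM of 0.128 in the control library and 0.682 with USP21 shRNA, a log2 ratio of 1.78 that was not counted as past 2-fold because both values were under 1. In its band of higher FPKM, from 0.1 to 1, 13.7% of genes with an FPKM of at least 0.1 lay past 2-fold. Actc1, cardiac alpha actin, had 0.0214 and 0.0265, and its ratio lay within 0.05 on the log2 scale of the value that an equal number of fragments in both libraries would give. Alpha actins are near-identical as proteins, but of the 31-base words in the Acta1 transcript 4.45% occurred in another gene, mostly Actb (4.03%), and for Actc1 0.832%. Actb, cytoplasmic beta actin, had FPKM values of 2096 and 1828, and whether fragments of it reached Acta1 was not tested. Summed with the smooth muscle actins Acta2 and Actg2, alpha actin had 0.475 in the control library and 1.92 with USP21 shRNA (log2 ratio 1.81). Acta2 made up 53.4% of this sum with USP21 shRNA and Acta1 35.6%. Acta1 (chr8:123891769-123894751, minus strand) lies 2372 bases from Nup133, whose log2 ratio was -0.12.

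Des, which encodes desmin, had an FPKM of 9.34 in the control library and 12.2 with USP21 shRNA (log2 ratio 0.38), and 34.8% of genes lay as far from 0 or farther. Speg, beside Des on chromosome 1 and also a gene of striated muscle, had 5.59 and 7.68 (log2 ratio 0.45). The antisense gene Gm15179, which overlaps an exon of Des, was listed at 0 in both libraries.

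Other muscle genes were counted in the same way. Across 10 further lists of muscle genes, covering the thin filament, thick filament, Z-disc, chaperones, Smyd family, cardiac and skeletal transcription factors, SRF and MEF2 factors, calcium handling and metabolism, 127 genes were found. Of these, 47 had an FPKM of at least 1 in one library, 1 was more than 2-fold higher and 0 were more than 2-fold lower, beside 2.3% higher and 2.03% lower of all 11927 genes at that level. A count this small is near the background and is no result about muscle genes. The gene past 2-fold was Hand1, a transcription factor of heart and extraembryonic mesoderm, at 0.403 and 1.25 (log2 ratio 1.42). Like the members, these lists were written with earlier results known.

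The structural lists had medians close to 0. Of 13 other thin filament genes 6 passed the filter, with a median log2 ratio of 0.12, and the one with the highest control level was the tropomyosin Tpm1, at 26.5 and 43.2 (log2 ratio 0.7). Of 23 thick filament and M-band genes 13 passed, with a median of -0.06. Of 22 Z-disc and costamere genes 14 passed, with a median of -0.02, led in level by the filamin Flnc at 18.4 and 24.9. Levels within these lists spread widely, from Mylpf and Flnc down to genes listed at 0 in both libraries (Myl1 and Myoz2). The cardiac heavy chains Myh6, at 0.533 and 0.635, and Myh7, at 0.163 and 0.258, stayed under an FPKM of 1, as did titin (Ttn), at 0.0687 and 0.17. These 3 and Myoz2 were picked after their values were seen. Chaperones had a median of 0.03 over 7 genes, with Hsp90aa1 at 1385 and 1315.

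The regulators of muscle genes are given by their medians. Of 9 SRF and MEF2 factors, all with an FPKM of at least 1, 8 had a log2 ratio above 0, beside 50.5% of all genes that passed the filter, and the median was 0.42. Mef2c, at 0.0319 and 0.0338, and Myocd, at 0.0564 and 0.0619, were placed on the cardiac list instead. None of the 9 was past 2-fold, which at the background of 4.33% is not set apart from other genes. Of 14 cardiac transcription factor genes 9 passed the filter, with a median of -0.08, and Gata6, the highest of them, had 8.6 and 10.8. Of 8 skeletal myogenic factors found, 3 passed, with a median of -0.1, and Six4 was the highest at 5.88 and 5.65. Calcium handling genes had a median of 0.09 over 11 genes, with the calcium pump Atp2a2 at 118 and 102. Genes of muscle metabolism had 0.26 over 10 genes, with the fatty acid carrier Fabp3 at 158 and 95.9.

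**Figure D3:**
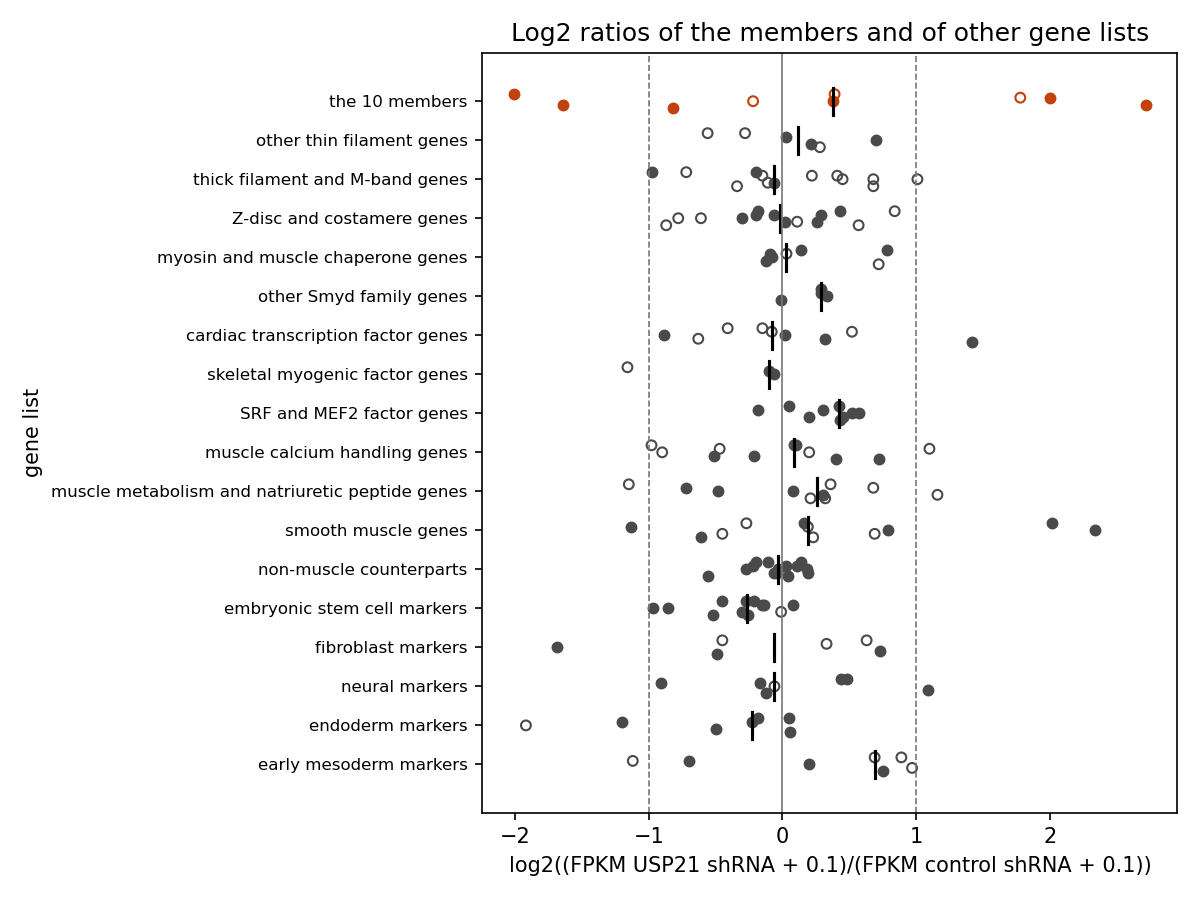
Log2 ratio (USP21 shRNA over control shRNA, 0.1 added to each FPKM) of the members (orange, the 9 with an FPKM of at least 0.1 in one library) and of 17 other gene lists (grey). Filled circles have an FPKM of at least 1 in one library, short black bars are list medians and dashed lines mark 2-fold. The members reach from -2.01 to 2.72 while the sarcomere lists stay closer to 0. The members were chosen with such differences in view, so their wider range is no result about them.

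Some genes of smooth muscle were past 2-fold. All 11 on that list passed the filter, with a median of 0.19, and their summed FPKM was 46.2 in the control library and 48.0 with USP21 shRNA. Tagln, an actin-binding protein of smooth muscle, had 1.41 and 7.54 (log2 ratio 2.34), and Acta2 had 0.177 and 1.02 (log2 ratio 2.02). Lmod1, a smooth muscle leiomodin, had 1.06 and 0.432 (log2 ratio -1.13), and Cald1, the highest of the list, had 23.6 and 15.5. Of the list, 6 genes had an FPKM of at least 1 in one library, and 2 were past 2-fold higher and 1 lower. This count stands beside 4.33% of all genes past 2-fold in either direction. Acta2 and Lmod1 only just reached an FPKM of 1, in the band from 1 to 5 where 9.67% of genes were past 2-fold. The list was written with earlier results known, so its count is a description. The 14 non-muscle actin, myosin and tropomyosin relatives had a median of -0.04, and 0 were past 2-fold, a count that the background of 4.33% does not set apart.

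Markers of several cell types were read in the same way. Of 12 embryonic stem cell markers all passed the filter, and 11 had a log2 ratio below 0. Over all genes that passed the filter, 50.5% were above 0. The markers had a median of -0.26 and a summed FPKM of 4678 in the control library and 3593 with USP21 shRNA. The sum over all symbols was also lower with USP21 shRNA, at 543206 against 613617 in the control library. Rescaling to equal sums adds about 0.18 to the log2 ratio of such genes. That is more than the size of the ratios of Sox2 (-0.14), Klf4 (-0.15) and Dppa3 (-0.01). The ratios farthest below 0 were those of Tfcp2l1, at 59.0 and 30.2 (-0.97), and Nanog, at 467 and 258 (-0.86). Utf1, at 0.08, was the marker above 0. Dppa5a had the highest FPKM, at 1849 and 1285, so markers of the labelled cell type were present in both libraries. Of 10 early mesoderm markers 7 passed the filter, 5 with a log2 ratio above 0 and 2 below it, with a median of 0.69 and a summed FPKM of 5.68 and 7.67. Of these, 3 had an FPKM of at least 1 in one library and 0 were past 2-fold, with Pdgfra at 2.48 and 4.22 and Mixl1 at 1.06 and 0.613. Fibroblast markers summed to 87.7 and 120, of which Fn1 held 67.7 and 112, while Thy1 had 17.3 and 5.29 (log2 ratio -1.69) and Lum was listed at 0 in both. Neural markers summed to 54.4 and 40.4, with Tubb3 at 38.5 and 20.4 and Neurod1 at 1.46 and 3.21 (log2 ratio 1.09). Endoderm markers summed to 72.8 and 63.7, with Lama1 at 32.0 and 33.3 and Sox7 at 4.68 and 1.97 (log2 ratio -1.2). The fibroblast, neural and endoderm lists had medians of -0.06, -0.06 and -0.23. Of their genes with an FPKM of at least 1 in one library, 1 of 3, 1 of 6 and 1 of 6 were past 2-fold. For the embryonic stem cell markers it was 0 of 11. The share over all genes was 4.33%, and 9.67% in the band of higher FPKM from 1 to 5. Counts this small are no result about cell types. The part of these cell types in the members' values was not tested. In bulk RNA, more or fewer cells of a type and more or less RNA per cell cannot be told apart.

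The directions were the same under the other scalings, most of which could not have changed them. Log2 ratios were recomputed with pseudocounts of 1 and 0.01, after rescaling to equal sums, after setting the median of all genes to 0, and after removing the length trend, and each member kept its sign in all 5. A pseudocount added to both libraries cannot change a sign, and setting the median to 0 left the members' values nearly unchanged. Equal sums added at most about 0.18, and the negative ratio nearest 0 was -0.22, for Tnni1, so no sign could change there either. The length trend at the members lay between -0.28 and 0.02, small beside the ratios of Smyd1, Tnnt1, Myl4 and Myl7. The kept signs are therefore no support for these directions. Smyd1 ranged from 1.99 to 2.9, Tnnt1 from 1.86 to 2.18, Myl4 from -1.65 to -1.45 and Myl7 from -2.08 to -1.52, and these 4 were past 2-fold each time. The value of Acta1 was the least stable, from 0.58 with a pseudocount of 1 to 2.32 with 0.01. The agreement of settings concerns the same pair of libraries and gives no replicate error.

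**Figure D4:**
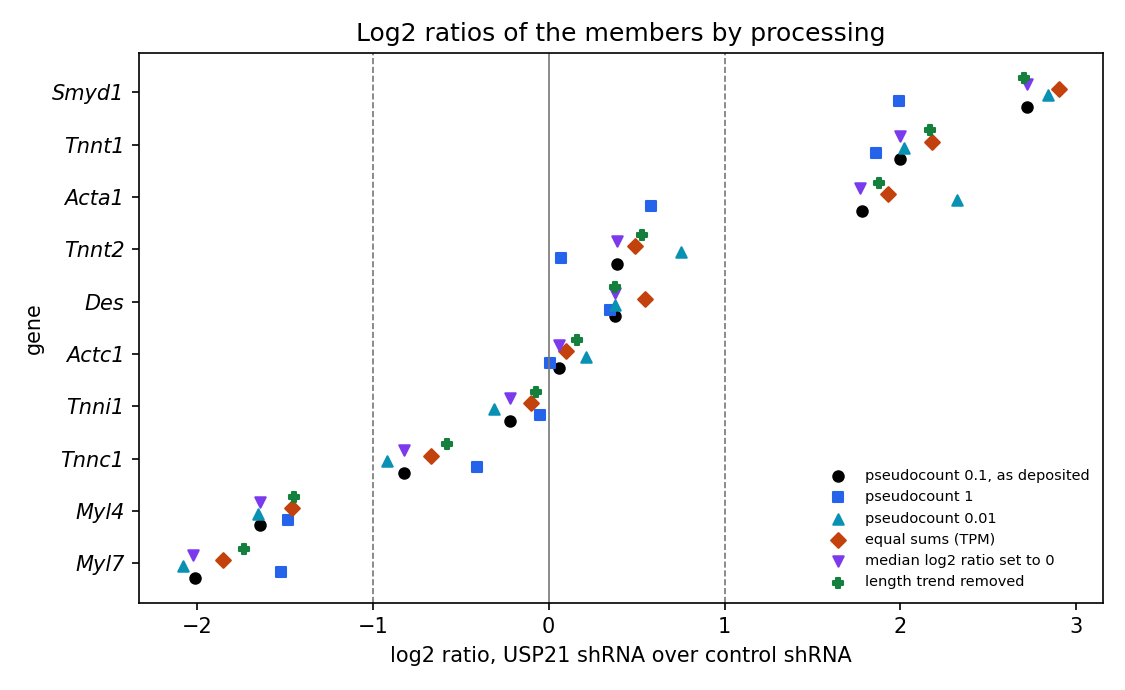
Log2 ratio (USP21 shRNA over control shRNA) of each member under 6 ways of computing it, with dashed lines at 2-fold. Smyd1 and Tnnt1 lie to the right of the upper line and Myl4 and Myl7 to the left of the lower line under each of them, and Acta1 spreads from 0.58 to 2.32.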

How the data were processed

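FPKM values, 1 for every symbol, were deposited by the authors for 2 libraries of E14 cells, 1 with control shRNA and 1 with USP21 shRNA. The submitters' processing notes name CASAVA 1.8.2, TopHat2 2.0.14, Cufflinks 2.2.1 and the build mm9, without the role or order of each. The annotation, strandedness and filters are not given in the sources used here, and this sequencing is absent from the text of the paper. Columns were matched to samples through the sample's own file, and genes by symbol.

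The members and gene lists were chosen with earlier results of these data known. For all 23889 symbols, the log2 ratio of USP21 shRNA to control FPKM was computed after adding 0.1 to both. Medians were taken over genes with FPKM of at least 0.1 in one library, and 2-fold was counted with FPKM of at least 1 in one library. With 1 library per group no test, p-value or SD was computed. Without counts no interval was computed, and the depth of each library is unknown. The genes named are the 10 members, Usp21, and of each list those past 2-fold and the highest in the control library. Paralogs and some flanking genes of the members, 3 genes of contractile muscle, Myoz2, Lum, Mixl1 and Smyd4 were named in addition, chosen after their values were seen. The same holds for Mef2c, Myocd, Sox2, Klf4, Dppa3, Utf1, Tfcp2l1 and Nanog. Positions came from GENCODE M21 (GRCm38), which is not the build of the files, and shared sequence was counted as 31-base words of transcripts. Promoters came from RefSeq (GRCm38.p6). The alternatives were other pseudocounts, filters, FPKM floors and folds, equal sums (TPM), centring on the median, and removal of a lowess trend (span 0.3) with transcript length. The ratio script was tested on simulated data. Scripts ran in Python 3.11.15 with pandas 2.3.3, numpy 2.4.6, statsmodels 0.14.6, scipy 1.17.1 and matplotlib 3.10.9.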

Additional observations from a re-analysis of the deposited data

How the results depend on the processing

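Of 50 recomputed log2 ratios of the members, 48 moved by less than 1.5-fold, 0 changed sign, and those of Acta1 (0.58) and Smyd1 (1.99) moved farther with a pseudocount of 1. A pseudocount cannot change a sign, and centring on the median hardly moved the values. The shift from equal sums, 0.18, was too small to reverse the negative ratio nearest 0, -0.22 for Tnni1. The count of members past 2-fold stayed at 4 under the 5 scalings and with an FPKM floor of 5, and was 5 with a floor of 0.1 or at 1.5-fold. The median log2 ratio of the members, 0.38, was -0.22 when an FPKM of at least 1 in one library was asked for, which leaves 6 members, and lay between 0.07 and 0.49 under the other settings. Over the 17 gene lists, the 4 genes past 2-fold higher became 1 and the 3 lower became 1 with a pseudocount of 1, and the lower ones became 5 with the length trend removed. Over all genes past 2-fold, a pseudocount of 1 left 108 higher and 100 lower of 274 and 242, and equal sums gave 464 and 154. No paired analysis was possible because each group has 1 library, and for the same reason no replicate could be left out. The FPKM values carry no counts, so the precision of members under an FPKM of 1 is unknown.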
